A study of Mus musculus with 12 samples.

Results

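Tuft cells are chemosensory epithelial cells, and the results below follow 34 genes of their program through the thymic epithelium. The genes were taken by symbol, as a list of tuft cell transcription factors, taste transduction proteins, eicosanoid enzymes, signalling proteins and cytoskeletal proteins, out of 27179 genes in the deposited count table. All 34 were in the table and all 34 passed the filter on low counts. RNA was sequenced in bulk from sorted thymic epithelial cells (TECs) of C57BL/6 fetal thymic organ cultures, 3 biological replicates in each of 4 groups. Lobes of E15.5 embryos were depleted of thymocytes by 4 to 5 days in 1.35 mM 2'-deoxyguanosine. Agonist anti-RANK at 10 µg/mL followed for 3 days, and RANK is the receptor whose signal induces AIRE. These steps were shared by every group. The Kat7 knockout cultures came from RosaCre-ERT2 Kat7fl/fl mice and received tamoxifen, which activates a Cre recombinase that the Rosa locus expresses in many cell types, so the deletion is not limited to TECs. The control cultures also received tamoxifen, and the labels do not detail their genotype beyond "control". The WM-3835 cultures were wild type and received this inhibitor of KAT7 (a histone acetyltransferase also called HBO1), whose dose and duration the labels do not give. The DMSO cultures were wild type and received the solvent. Sample titles have WM-3825 where the treatment field has WM-3835, and the second spelling is used here.

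In the gut, airway and thymic medulla, tuft cells depend on the transcription factor POU2F3. They sense luminal or local compounds through G protein-coupled receptors and the cascade that taste cells use, in which gustducin and phospholipase C beta release calcium through inositol trisphosphate receptors and open the channel TRPM5. They release IL-25, cysteinyl leukotrienes, prostaglandins and acetylcholine, which act on type 2 immune cells and nerves. Thymic tuft cells arise in the medulla, express many bitter taste receptors, and are known there for shaping the type 2 immune environment.

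The libraries held 26656847 to 52368012 counts. All 12 genes on a list of TEC markers passed the filter, and their summed level was 12520 ± 325 CPM (counts scaled to library size with TMM factors) in Kat7 knockout, 12690 ± 906 in control, 9241 ± 562 in WM-3835 and 10640 ± 1030 in DMSO cultures (SD, n = 3 each). Kat7 had 0.606, 0.81 and 0.869 CPM in the Kat7 knockout libraries, against 89.0, 76.5 and 76.0 CPM in the control libraries. Xist, which marks female cells, had 1710, 1190 and 4.94 CPM in Kat7 knockout libraries 1, 2 and 3, 2.34 to 3.17 CPM in the control libraries, and 846 to 2120 CPM in the WM-3835 and DMSO libraries. The Y-linked gene Ddx3y had 83.0 to 105 CPM in the control libraries and 30.1, 67.8 and 112 CPM in Kat7 knockout libraries 1, 2 and 3. It had 26.2 to 74.8 CPM in the WM-3835 libraries and 25.2 to 52.7 CPM in the DMSO libraries. Ddx3y was thus highest in the libraries that were low in Xist, the controls and Kat7 knockout 3. Xist thus separates the control libraries and Kat7 knockout 3 from the other 8, and a fit with Xist as a covariate is given beside the results. Within the groups, only Kat7 knockout 3 stands apart in Xist, so the Xist term of that fit rests mainly on this library. Such a fit cannot tell Xist apart from other differences of that library.

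The promoters of 5 members are shown, picked after the values of the DMSO and control cultures were seen. The defining tuft genes Trpm5 and Avil were 12.5 and 11 times lower in DMSO cultures. They are examples of members whose windows lack the motif described next. Hpgds, Sucnr1 and Itpr3, whose windows hold it, were the 3 members not called. Sucnr1 was still 17.7 times lower in mean CPM, at few counts, and narrowly missed the threshold (edgeR adjusted p = 0.0532). POU2F factors bind the octamer ATGCAAAT, which was searched on both strands (as ATGCAAAT or ATTTGCAT) in RefSeq windows of 300 bases, from 250 before to 50 after an annotated start, on GRCm38.p6. Capitals mark the octamer. Windows were found for 31 of the 34 members, and Pou2f3, Il25 and Alox5ap were not shown. The Trpm5 window is chr7:143094593-143094892 on the minus strand, the Avil window chr10:127000459-127000758 on the plus strand, the Hpgds window chr6:65144681-65144980 on the minus strand, the Sucnr1 window chr3:60081619-60081918 on the plus strand, and the Itpr3 window chr17:27057054-27057353 on the plus strand. Each sequence runs 5′ to 3′ on the gene's strand.
Trpm5: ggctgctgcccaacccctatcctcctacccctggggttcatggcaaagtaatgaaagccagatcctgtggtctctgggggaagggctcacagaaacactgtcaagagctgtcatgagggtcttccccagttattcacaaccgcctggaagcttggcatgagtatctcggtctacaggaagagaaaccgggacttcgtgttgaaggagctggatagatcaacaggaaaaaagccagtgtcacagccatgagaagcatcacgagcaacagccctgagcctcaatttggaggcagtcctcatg
Avil: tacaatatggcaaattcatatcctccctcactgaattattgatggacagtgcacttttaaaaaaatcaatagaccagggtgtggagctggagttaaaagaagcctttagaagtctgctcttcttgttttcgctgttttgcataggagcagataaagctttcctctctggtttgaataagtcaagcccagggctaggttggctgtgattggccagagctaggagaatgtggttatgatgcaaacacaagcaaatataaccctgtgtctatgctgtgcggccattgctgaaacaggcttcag
Hpgds: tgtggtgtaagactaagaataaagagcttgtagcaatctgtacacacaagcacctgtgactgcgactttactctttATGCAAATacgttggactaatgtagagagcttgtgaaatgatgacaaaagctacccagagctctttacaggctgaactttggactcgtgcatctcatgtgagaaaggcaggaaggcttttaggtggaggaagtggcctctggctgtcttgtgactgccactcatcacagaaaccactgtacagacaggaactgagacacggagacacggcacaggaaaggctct
Sucnr1: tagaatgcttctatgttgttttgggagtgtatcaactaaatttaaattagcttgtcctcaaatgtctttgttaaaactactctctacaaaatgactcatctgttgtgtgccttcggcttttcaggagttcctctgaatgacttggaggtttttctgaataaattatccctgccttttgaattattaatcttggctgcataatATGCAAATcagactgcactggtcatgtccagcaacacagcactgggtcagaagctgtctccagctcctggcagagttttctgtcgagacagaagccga
Itpr3: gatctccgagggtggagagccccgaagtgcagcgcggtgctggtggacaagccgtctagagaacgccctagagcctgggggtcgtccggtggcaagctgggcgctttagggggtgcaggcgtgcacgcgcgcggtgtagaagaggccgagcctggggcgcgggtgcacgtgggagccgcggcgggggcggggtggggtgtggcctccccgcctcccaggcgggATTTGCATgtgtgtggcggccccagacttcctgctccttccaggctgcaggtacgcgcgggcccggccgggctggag

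The octamer was found in 3 of the 31 members with a window. Distances are from the annotated start used for each window. It began 174 bases before that start in Hpgds, the gene of hematopoietic prostaglandin D synthase, and 48 bases before it in Sucnr1, the succinate receptor. In Itpr3, an inositol trisphosphate receptor, it began 27 bases before the start as the reverse complement. The whole gene spans of Hpgds (chr6:65117293-65144981) and Itpr3 (chr17:27057002-27122223) begin further upstream. The octamers of Hpgds and Itpr3 therefore lie inside these spans. Among all 27025 genes 1.97% had a window that held it, or 1.74% of all 32851 windows. A match of letters is not a bound site, and the absence of a match says only that these letters are not in the window.

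Compared per kilobase of gene length, the order of the members differed between the cultures. In the DMSO cultures Espn (18.9 ± 1.37 CPM per kb, SD, n = 3), which encodes an actin-bundling protein, and Itpr3 (16.9 ± 1.15) led, and Gnat3 had 11.7 ± 2.83 and Avil 6.77 ± 1.62 CPM per kb. In the control cultures the highest level was that of Gnat3, the alpha subunit of gustducin (121 ± 23.7 CPM per kb), followed by Avil, which encodes an actin-binding protein (74.6 ± 15.4). Sh2d6 (53.7 ± 19.1), Espn (45.9 ± 8.95), Alox5ap (45.5 ± 16.4), Trpm5 (43.1 ± 8.26) and Gng13 (40.9 ± 10.8 CPM per kb) came next in control cultures. From Avil to Gng13 the mean ± SD ranges of neighbours overlapped, while those of Gnat3 and Avil did not. Sucnr1 was lowest in control cultures at 0.466 ± 0.444 CPM per kb, and its range did not reach that of Hmx2 (3.09 ± 1.56 CPM per kb).

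Summed over all 34 members, the Kat7 knockout libraries had 1877, 1936 and 2001 CPM, against 2793, 1990 and 2046 CPM in the control libraries. Control library 1 stood above the other 5, and knockout libraries 1 and 2 lay below both remaining controls while knockout library 3 lay between them. The WM-3835 libraries had 577.6, 534.7 and 587.0 CPM, against 574.7, 497.9 and 562.7 CPM in the DMSO libraries, and these groups overlapped. For 13 defining members that few other cells make (Pou2f3, Trpm5, Avil, Gnat3, Gng13, Il25, Chat, Hmx2, Hmx3, Sh2d6, Sh2d7, Dclk1 and Tas1r3), the sum was 842.6 ± 27.8 CPM in Kat7 knockout and 949.3 ± 209 CPM in control cultures, and 88.5 ± 15.1 CPM in WM-3835 and 104.7 ± 21.6 CPM in DMSO cultures. In bulk RNA, fewer tuft cells and less RNA of these genes per cell cannot be told apart.

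**Figure D1:**
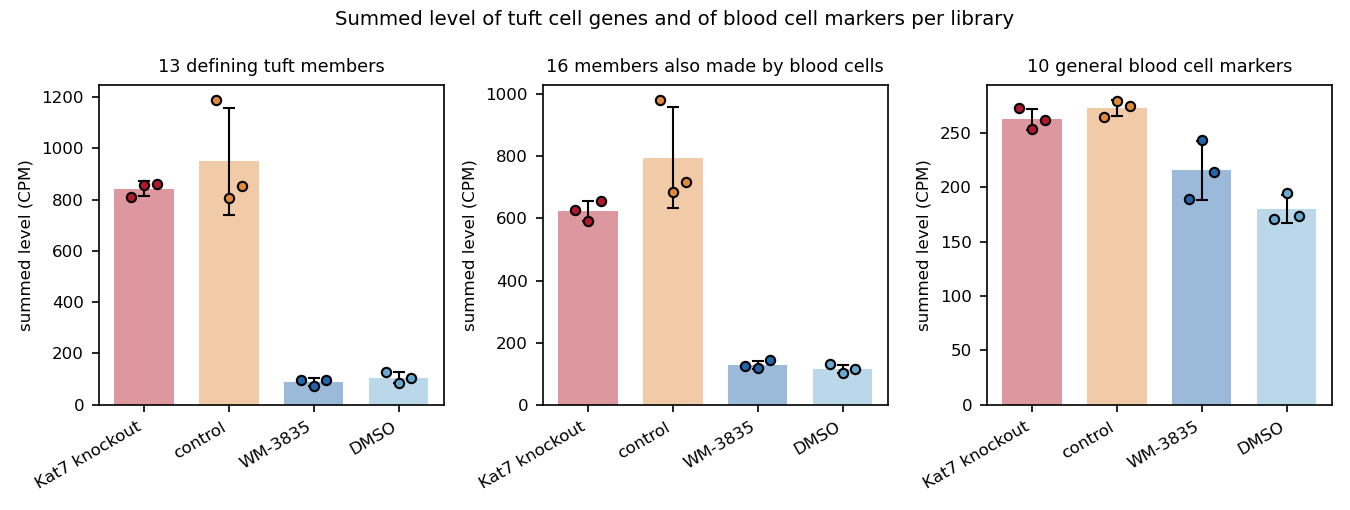
Summed level in CPM, on a linear axis from 0, of the 13 defining tuft genes, of the 16 members that blood cells also make and of 10 blood cell markers in each library, grouped as Kat7 knockout, control, WM-3835 and DMSO; points are libraries, bars are means and error lines SD. The defining genes sum to 810.7 to 861.4 CPM in Kat7 knockout and 804.8 to 1189 CPM in control libraries, and to 71.07 to 97.53 CPM in WM-3835 and 82.96 to 126.2 CPM in DMSO libraries.

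Loss of Kat7 was compared with control to ask how TECs without this enzyme differ. Of the 34 tuft genes, 7 fell and 1 rose, and 26 did not pass the test. Il17rb, Espn, Inpp5d, Matk, Ptgs1, Cd300lf and Hmx3 fell by 1.45 to 2.09 times in mean CPM, and Hpgds rose. Pou2f3, Trpm5, Avil and Dclk1, the genes most used to identify tuft cells, were not among those called. The test was edgeR's quasi-likelihood test on the counts, with Benjamini-Hochberg adjustment over 18670 genes and a call at an adjusted p under 0.05, and it gives every adjusted p below. Sizes given with an SE or an adjusted p are log2 changes. The members' share called was 23.5%, against 14.2% of all genes tested (8.06% lower and 6.12% higher). The log2 change was negative for 29 members and positive for 5, with a median of -0.355 over the 34 and -0.011 over all genes tested. All 3 knockout libraries lay below all 3 control libraries for 12 members (13.5% of all genes) and above them for 1 (12.2% of all genes).

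Among the 4 transcription factors, Hmx3 fell in the knockout. Hmx3, a homeobox factor, had 10.2, 4.12 and 11.6 CPM in Kat7 knockout libraries and 16.6, 15.8 and 21.8 CPM in control libraries. All knockout libraries lay below all controls, with library 2 lowest, and the log2 change was -1.06 (SE 0.34, adjusted p = 0.0451). Pou2f3, the factor on which tuft cells depend, had 44.4, 39.3 and 30.1 CPM in knockout and 58.0, 33.6 and 44.2 CPM in control libraries. The groups overlapped, and its log2 difference of -0.25 (95% interval -0.68 to 0.17, adjusted p = 0.459) did not pass. The repressor Gfi1b had a log2 difference of -0.75 and the homeobox factor Hmx2 one of -0.68, and neither passed (adjusted p = 0.17 and 0.484).

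In the receptor and taste transduction group of 9 members, 0 passed with edgeR, DESeq2 or limma-voom, and Gnat3 and Itpr2 had an unadjusted p under 0.05 with edgeR. Trpm5, the cation channel that depolarises the cell, had 190, 187 and 196 CPM in Kat7 knockout libraries and 229, 158 and 181 CPM in control libraries. The knockout values lay inside the control range, and the log2 difference was 0.01 (95% interval -0.30 to 0.32, adjusted p = 0.966). Plcb2, the phospholipase of the taste cascade, had 133, 114 and 136 CPM in knockout and 171, 138 and 127 CPM in control libraries. These overlapped, with a log2 difference of -0.19 (95% interval -0.51 to 0.14, adjusted p = 0.467). Gnat3 had 81.4, 120 and 107 CPM in knockout and 174, 127 and 125 CPM in control libraries. All knockout libraries lay below all controls, and the log2 difference of -0.47 (SE 0.21) did not pass (adjusted p = 0.143). The other 6, namely the sweet and umami receptor subunit gene Tas1r3, Sucnr1, the gustducin partner Gng13, the G protein regulator Rgs13, and the calcium release channels Itpr2 and Itpr3, had log2 differences of -0.35 (Gng13) to 0.25 (Itpr2).

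Among the 5 eicosanoid enzymes, Ptgs1 fell and Hpgds rose. Ptgs1, cyclooxygenase 1, had 26.5, 29.2 and 28.7 CPM in Kat7 knockout libraries and 58.3, 28.4 and 45.3 CPM in control libraries. Control 2 lay within the knockout values, and Ptgs1 fell in the knockout by 0.64 (SE 0.20, adjusted p = 0.035). Hpgds, which makes prostaglandin D2, had 32.4, 30.9 and 42.1 CPM in knockout and 25.1, 24.4 and 15.9 CPM in control libraries. Every knockout library lay above every control, and Hpgds rose by 0.69 (SE 0.18, adjusted p = 0.0168). The leukotriene enzymes did not pass. Alox5, 5-lipoxygenase, had 85.7, 81.4 and 93 CPM in knockout and 119, 89.4 and 91.8 CPM in control libraries, a log2 difference of -0.21 (SE 0.16, adjusted p = 0.436). Ltc4s, which makes leukotriene C4, had 12.4, 10.2 and 14.3 CPM in knockout and 17.8, 11.6 and 16.2 CPM in control libraries, a log2 difference of -0.30 (SE 0.24, adjusted p = 0.449). Both overlapped between the groups, as did Alox5ap, which presents arachidonic acid to 5-lipoxygenase (log2 difference -0.40, adjusted p = 0.367).

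The cytokine and transmitter genes were all lower in mean level, and the receptor gene passed. Il17rb (chr14:29996168-30008896), a subunit of the IL-25 receptor, had 15.8, 19.3 and 15.2 CPM in Kat7 knockout libraries and 30.1, 23.9 and 27.3 CPM in control libraries. The groups did not overlap, and Il17rb fell by 0.70 (SE 0.16, adjusted p = 0.008). Il25, the cytokine itself, had 8.59, 10.3 and 10.9 CPM in knockout and 22.7, 14.1 and 18.1 CPM in control libraries. All knockout libraries lay below all controls, and the log2 difference of -0.88 (SE 0.30, 95% interval -1.51 to -0.25) missed the threshold (adjusted p = 0.057). It passed with DESeq2 (-0.89, adjusted p = 0.0287) and with limma-voom (-0.89, adjusted p = 0.0179), and over all settings run its adjusted p was 0.0179 to 0.436. Chat, which makes acetylcholine, had 11.1, 8.03 and 12.5 CPM in knockout and 24.4, 13.9 and 15.6 CPM in control libraries. These too did not overlap, and the log2 difference of -0.77 (SE 0.31) did not pass (adjusted p = 0.111), though it did with limma-voom (-0.82, adjusted p = 0.0499; 0.577 at most over all settings).

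Of 8 kinases, phospholipases and adaptors, 3 fell in the knockout, and all 8 differences were negative. Inpp5d, the lipid phosphatase SHIP1, had 31.8, 35.6 and 27.8 CPM in Kat7 knockout libraries and 53.0, 35.4 and 49.5 CPM in control libraries. Control 2 lay just under the highest knockout library, and Inpp5d fell by 0.53 (SE 0.15, adjusted p = 0.0263). Matk, a kinase related to CSK, had 42.9, 33.9 and 50.1 CPM in knockout and 82.8, 58.5 and 55.3 CPM in control libraries. The groups did not overlap, and Matk fell by 0.63 (SE 0.19, adjusted p = 0.0319). Cd300lf, an immunoglobulin-family receptor that murine norovirus uses to enter tuft cells, had 13.3, 13.3 and 14.6 CPM in knockout and 32.0, 19.2 and 29.4 CPM in control libraries. The knockout libraries were tightly grouped below all controls, and Cd300lf fell by 0.97 (SE 0.31, adjusted p = 0.0444). The guanine nucleotide exchange factor Vav1 (-0.47, adjusted p = 0.0596), Plcg2 (-0.36, adjusted p = 0.121), the TEC-family kinase Bmx (-0.38, adjusted p = 0.242), and the SH2-domain proteins Sh2d6 (-0.42, adjusted p = 0.286) and Sh2d7 (-0.31, adjusted p = 0.376) did not pass.

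Among the cytoskeletal and other members, Espn (chr4:152120331-152152414, mm10) fell and had the smallest adjusted p of the 34. Espn had 78.0, 96.4 and 90.7 CPM in Kat7 knockout libraries and 177, 129 and 127 CPM in control libraries. No library overlapped, and Espn fell by 0.71 (SE 0.12, adjusted p = 0.000521). Avil, which marks tuft cells, had 235, 243 and 241 CPM in knockout and 280, 195 and 203 CPM in control libraries. The knockout values lay inside the control range, with a log2 difference of 0.08 (95% interval -0.20 to 0.37, adjusted p = 0.738). Dclk1, a microtubule-associated kinase, had 103, 118 and 121 CPM in knockout and 163, 99.2 and 125 CPM in control libraries, which overlapped (log2 difference -0.18, 95% interval -0.49 to 0.14, adjusted p = 0.479). The calmodulin-binding protein gene Nrgn (-0.29, adjusted p = 0.67) and Strip2 (-0.21, adjusted p = 0.0922) did not pass.

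**Figure D2:**
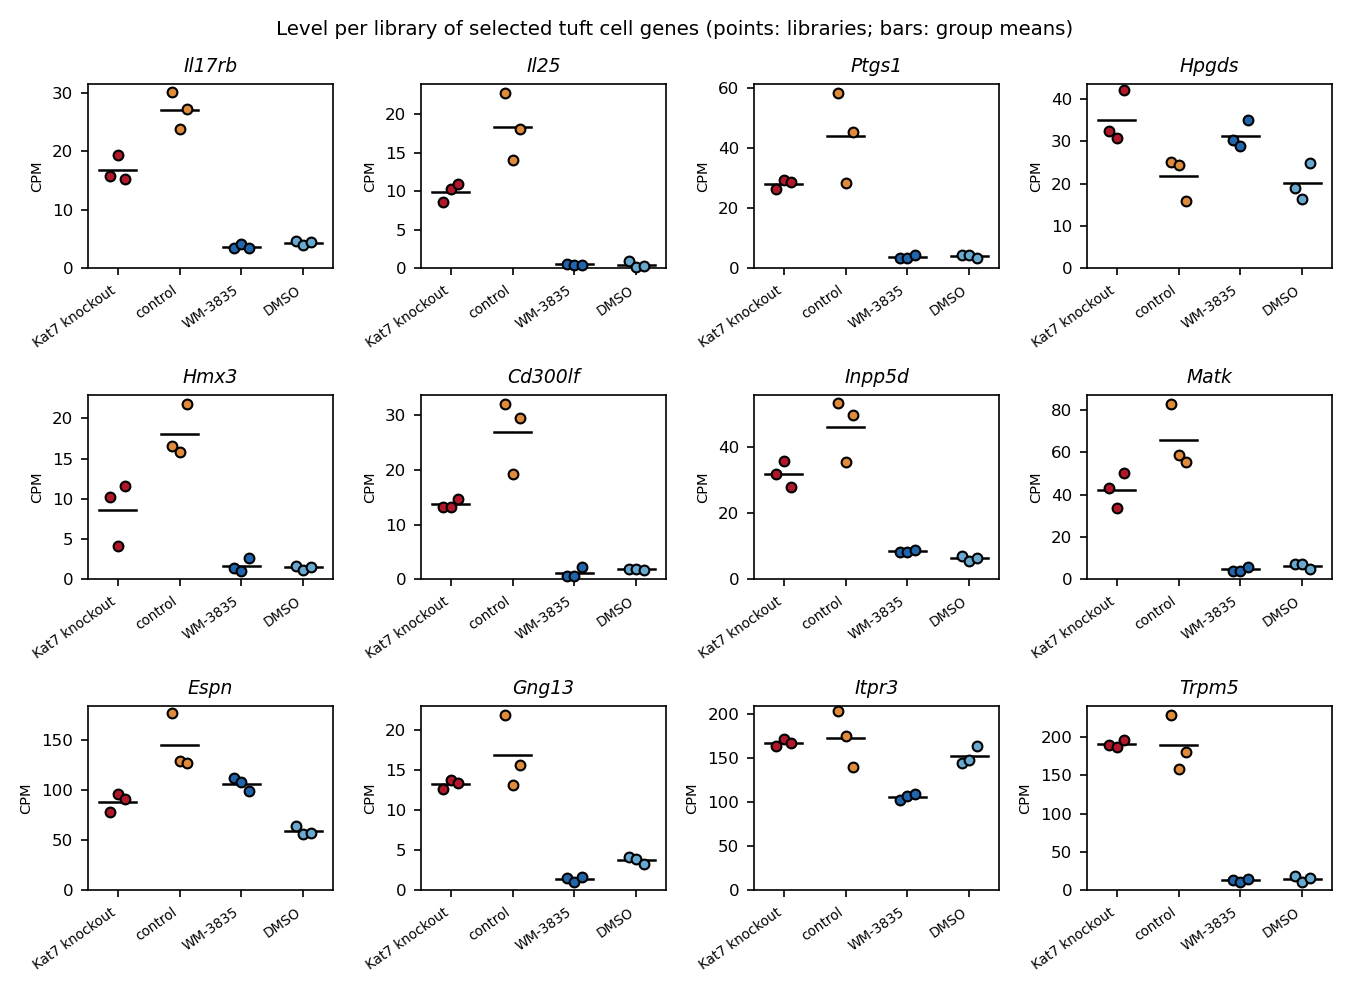
CPM in each library, on linear axes from 0, of 12 members (10 called in Kat7 knockout against control or WM-3835 against DMSO, with Il25 and Trpm5), with groups in the order Kat7 knockout, control, WM-3835 and DMSO; points are libraries and lines are group means. Il17rb, Il25, Cd300lf and Espn have every knockout library below every control library, Hpgds has every knockout library above, and Trpm5 has knockout libraries at 187 to 196 CPM inside the control range of 158 to 229 CPM.

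The knockout calls rested unevenly on single libraries. Instead of 7 members lower (14.2% of all genes called), 2 were called without control 1 (13.7%) and 2 without Kat7 knockout 1 (10.1%). Without knockout 2, 3 were called lower (9.2%), and without knockout 3, 4 were (10.4%). The median over members was -0.162 without control 1. The part of a general loss of calls with fewer libraries in these counts was not tested. Il17rb and Espn were called with each library left out. Hpgds was lost without knockout 3 (0.55, adjusted p = 0.0842). Matk was lost without control 1 (-0.42, adjusted p = 0.158), knockout 1 (-0.63, adjusted p = 0.0827) and knockout 2 (-0.48, adjusted p = 0.152). Inpp5d was lost without control 1, control 3, knockout 1 or knockout 3 (adjusted p = 0.0678 to 0.114). Ptgs1 and Cd300lf were each lost without any 1 library of the 6 other than control 2 (adjusted p = 0.0645 to 0.198), and Hmx3 without any 1 other than knockout 3 (adjusted p = 0.0531 to 0.162). With Xist as a covariate the share of all genes called was 2.61% instead of 14.2%, and 0 members were called (4 lower and 1 higher at an unadjusted p under 0.05). The Xist term was set mainly by knockout 3. In that fit Espn had -0.66 (adjusted p = 0.0711), Il17rb -0.83 (adjusted p = 0.0983), Inpp5d -0.76 (adjusted p = 0.0957) and Hpgds 0.95 (adjusted p = 0.0569), while Hmx3 had -0.74 (adjusted p = 0.494) and Matk -0.39 (adjusted p = 0.512). With limma-voom, 10 members were lower and 0 higher, with 7.43% of all genes called. With DESeq2, 9 were lower and 1 higher, with 18.2% of all genes called.

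Markers of other cells were followed in the same comparison, beside 8.06% of all genes lower and 6.12% higher. Of 5 tested markers of thymocytes, 8 of innate lymphoid and natural killer cells and 7 of B cells, 0 were called. Of 7 tested markers of platelets and red cells, Gp9 was lower. Of 9 tested genes on a list of 10 blood cell markers, Coro1a, Itgb2 and Laptm5 fell, while the list summed to 253.5 to 272.4 CPM in Kat7 knockout and 264.6 to 279.3 CPM in control libraries, and Ptprc, the pan-leukocyte phosphatase CD45, had 8.18 ± 2.74 CPM in knockout and 8.67 ± 4.33 CPM in control cultures. Mast cell and basophil markers summed to 80.88 to 95.23 CPM in knockout and 116.0 to 172.7 CPM in control libraries, with Hdc, Mcpt1 and Mcpt2 lower of 10 tested, and Mcpt8 and Ms4a2 listed at 0 in all knockout libraries. Macrophage and dendritic cell markers summed to 61.95 to 74.93 CPM in knockout and 75.03 to 147.2 CPM in control libraries, with Lyz2 lower of 12 tested. The 16 members that blood cells also make, which include Il17rb, Ptgs1, Inpp5d, Matk, Cd300lf and Hpgds, summed to 592.9 to 657.4 CPM in knockout and 685.5 to 982.6 CPM in control libraries. The part of these cells in the member results was not tested. Of the 8 called members, Hmx3 is the only one on the list of 13 defining genes, and Espn is among 5 on neither of these lists.

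Treatment with WM-3835 was compared with DMSO to ask what inhibition of KAT7 does in wild-type TECs. Among the tuft genes, Gng13, Itpr3 and Sh2d6 fell and Espn, Itpr2 and Hpgds rose, and 28 did not pass. The members' share called, 17.6%, was near that of all genes tested, 18.7% (9.35% lower and 9.34% higher). The log2 difference was positive for 17 and negative for 17 members, with a median of -0.00165 over the members and -0.0092 over all genes tested. All 3 WM-3835 libraries lay above all DMSO libraries for 7 members (23.1% of all genes) and below them for 4 (23.0%). Levels ranged widely in these cultures: Il25, Hmx2, Nrgn, Chat and Sucnr1 each averaged under 1.3 CPM in both groups, while Itpr3 averaged 107 ± 3.92 CPM in WM-3835 and 152 ± 10.4 CPM in DMSO cultures.

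In taste transduction, Gng13 and Itpr3 fell with the inhibitor and Itpr2 rose. Gng13 (chr17:25717172-25719102), the gamma subunit that pairs with gustducin, had 1.59, 1.10 and 1.73 CPM in WM-3835 libraries and 4.22, 3.96 and 3.30 CPM in DMSO libraries. All treated libraries lay below all DMSO libraries, and Gng13 fell by 1.38 (SE 0.24, adjusted p = 0.000476). Itpr3 had 103, 107 and 110 CPM with WM-3835 and 145, 148 and 164 CPM with DMSO. These did not overlap either, and Itpr3 fell by 0.51 (SE 0.10, adjusted p = 0.00132). Itpr2, the other inositol trisphosphate receptor on the list, had 72.5, 62.5 and 66.7 CPM with WM-3835 and 49.5, 44.4 and 54.5 CPM with DMSO. All treated libraries lay above, and Itpr2 rose by 0.44 (SE 0.11, adjusted p = 0.00957).

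The rest of the taste cascade did not pass. Trpm5 had 14.1, 11.1 and 14.6 CPM in WM-3835 libraries and 18.3, 10.6 and 16.5 CPM in DMSO libraries, which overlapped (log2 difference -0.21, 95% interval -0.56 to 0.13, adjusted p = 0.439). Gnat3 had 11.7, 5.58 and 11.1 CPM with WM-3835 and 17.6, 11.4 and 12.3 CPM with DMSO (-0.55, 95% interval -1.03 to -0.07, adjusted p = 0.107). WM-3835 library 1 lay within the DMSO values for Gnat3, so these groups overlapped as well. Gnat3 passed with limma-voom (-0.72, adjusted p = 0.0224) and without a filter on low counts (-0.58, adjusted p = 0.0269), with 0.447 at most over all settings. Plcb2 had 20.5, 16.8 and 17.4 CPM with WM-3835 and 21.8, 12.1 and 14.2 CPM with DMSO (0.17, 95% interval -0.18 to 0.52, adjusted p = 0.56). Sucnr1 had 4, 15 and 8 counts in WM-3835 libraries and 4, 0 and 2 counts in DMSO libraries, too few to set a fold change on, while Tas1r3 (-0.19) and Rgs13 (0.60) did not pass.

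Hpgds rose with the inhibitor, as in the knockout, and the other eicosanoid enzymes did not pass. It had 30.2, 28.8 and 35 CPM in WM-3835 libraries and 18.9, 16.5 and 24.9 CPM in DMSO libraries. The groups did not overlap, and the rise was 0.64 (SE 0.18, adjusted p = 0.0188). Alox5 had 10.9, 7.35 and 11.8 CPM with WM-3835 and 11.3, 7.41 and 7.77 CPM with DMSO (0.16, SE 0.18, adjusted p = 0.627). Ltc4s had 3.85, 2.82 and 2.91 CPM with WM-3835 and 1.95, 3.10 and 1.97 CPM with DMSO (0.47, SE 0.25, adjusted p = 0.235). Both overlapped, as did Alox5ap (0.47, adjusted p = 0.379) and Ptgs1 (-0.11, adjusted p = 0.803).

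Espn rose with the inhibitor, in contrast to its fall in the knockout. It had 112, 108 and 98.5 CPM in WM-3835 libraries and 64.2, 56.3 and 57.4 CPM in DMSO libraries. All treated libraries lay above all DMSO libraries, and the rise was 0.84 (SE 0.12, adjusted p = 4.3e-05). Sh2d6, an SH2-domain protein of tuft cells, had 11, 6.05 and 13.6 CPM with WM-3835 and 19.5, 13.1 and 21.0 CPM with DMSO. The highest treated library lay just above the lowest DMSO library, and Sh2d6 fell by 0.82 (SE 0.26, adjusted p = 0.0334). Avil had 14.6 to 17.3 CPM with WM-3835 and 16.1 to 25.9 CPM with DMSO. These overlapped, and the log2 difference of -0.39 (SE 0.15) did not pass (adjusted p = 0.0788). It passed with DESeq2 (adjusted p = 0.0331) and limma-voom (adjusted p = 0.0143), with a range over all settings of 0.0143 to 0.474. Dclk1 had 25.5, 19.1 and 22.3 CPM with WM-3835 and 20.6, 14.6 and 17.4 CPM with DMSO, which overlapped (0.34, SE 0.16, adjusted p = 0.158).

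The regulator and effector genes did not pass with the inhibitor. Pou2f3 had 6.00, 4.69 and 8.22 CPM in WM-3835 libraries and 7.21, 6.58 and 5.5 CPM in DMSO libraries (-0.04, 95% interval -0.50 to 0.43, adjusted p = 0.948). Il25 had 0.627, 0.496 and 0.451 CPM with WM-3835 and 0.925, 0.224 and 0.374 CPM with DMSO (-0.03, 95% interval -0.85 to 0.79, adjusted p = 0.98). Il17rb had 3.47, 4.17 and 3.57 CPM with WM-3835 and 4.62, 4.04 and 4.47 CPM with DMSO (-0.23, 95% interval -0.60 to 0.13, adjusted p = 0.424). All of these overlapped between the groups. At 6 to 48 counts of Il25 per library, a small difference was not detectable at this depth. Chat had 0.783, 0.287 and 0.833 CPM with WM-3835 and 1.73, 1.01 and 0.913 CPM with DMSO. All treated libraries lay below, and the log2 difference of -0.97 (SE 0.38) did not pass (adjusted p = 0.0858), though it did with DESeq2 (adjusted p = 0.048; 0.409 at most over all settings). The remaining 12 members, among them Matk (-0.48), Cd300lf (-0.73), Inpp5d (0.39) and Gfi1b (0.87), did not pass.

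Espn, Gng13 and Itpr3 were called with each of the 6 libraries left out. Sh2d6 was lost without DMSO 1, DMSO 3, WM-3835 1 or WM-3835 2 (adjusted p = 0.0685 to 0.153) and with DESeq2 (-0.83, adjusted p = 0.0756), Hpgds without DMSO 1, DMSO 2 or WM-3835 3 (adjusted p = 0.0746 to 0.109), and Itpr2 without DMSO 2 (adjusted p = 0.061) or WM-3835 1 (adjusted p = 0.0571). The count of members higher was 1 without DMSO 2, where 12.7% of all genes were called. Blood cell markers summed to 189.0 to 243.3 CPM in WM-3835 and 170.7 to 194.4 CPM in DMSO libraries. Lcp1 was higher and Itgb2 lower of 9 tested, beside 9.34% of all genes higher and 9.35% lower. Mast cell markers summed to 41.21 to 50.35 CPM in WM-3835 and 67.21 to 69.09 CPM in DMSO libraries, with Cpa3 higher and Hdc lower of 10 tested and Mcpt8 and Gata1 listed at 0 in all WM-3835 libraries, and their part in the member results was not tested.

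**Figure D3:**
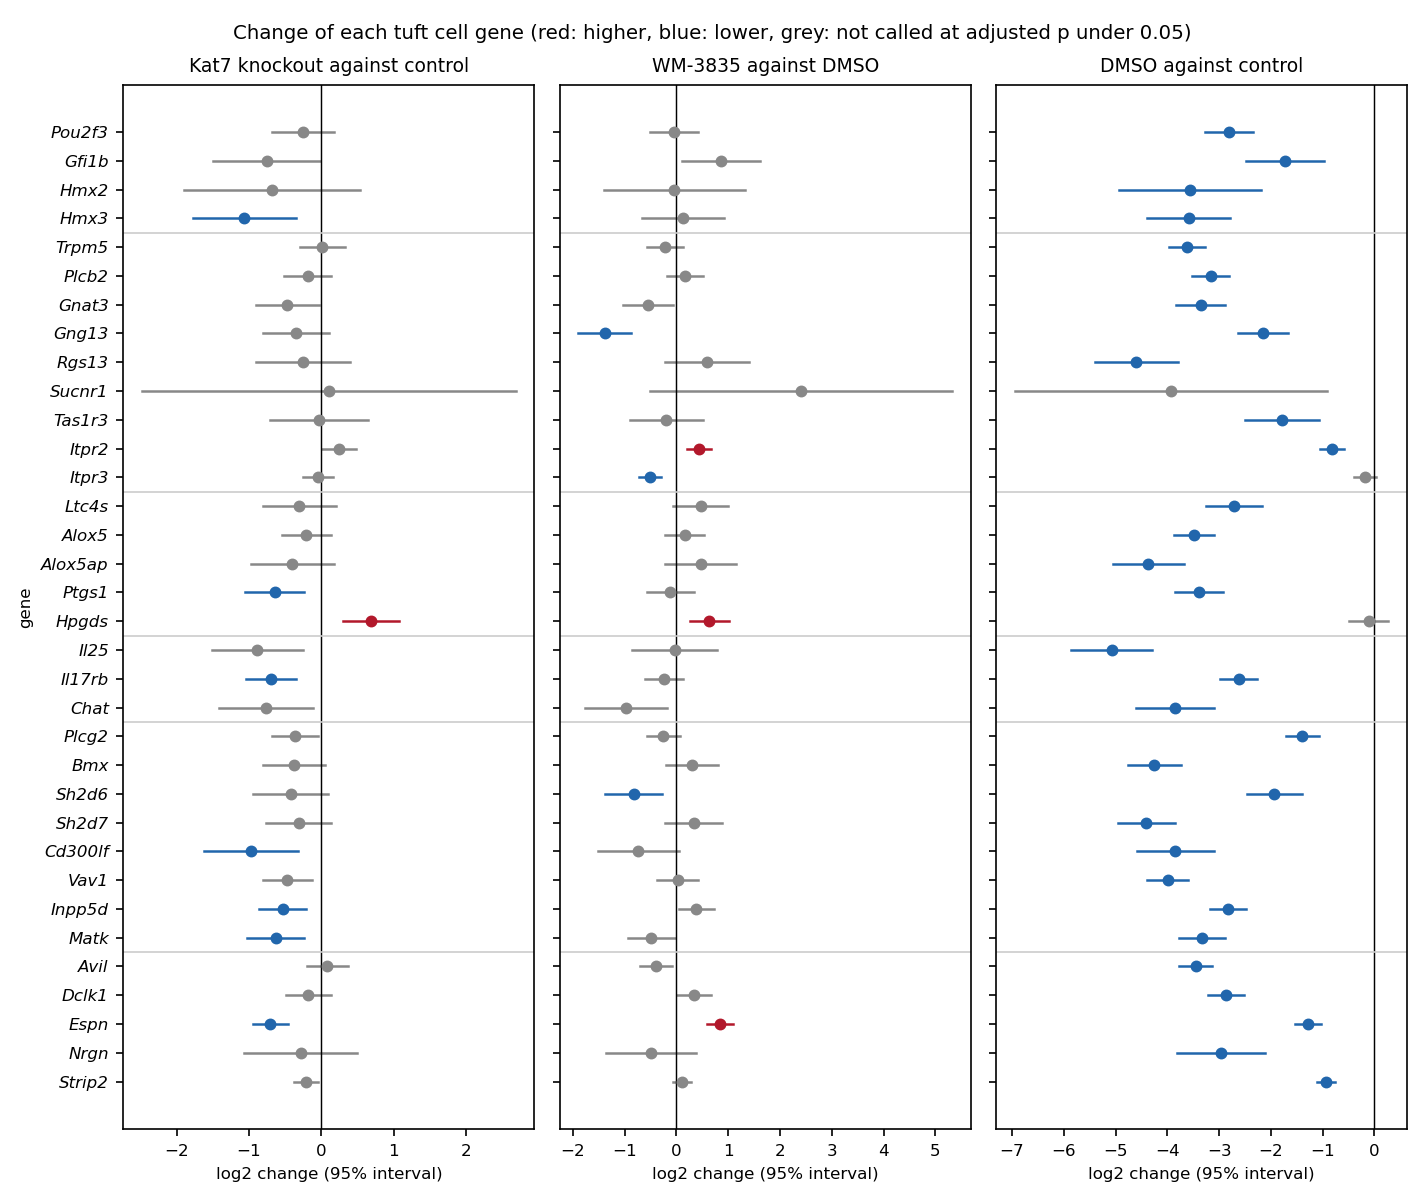
Log2 change with its 95% interval for each of the 34 members in the comparisons of Kat7 knockout with control, WM-3835 with DMSO, and DMSO with control, members ordered by role; red marks members called higher, blue called lower and grey not called. Most knockout estimates lie left of 0 with 7 blue and 1 red, the inhibitor estimates spread to both sides with 3 of each colour, and 31 of 34 are blue in DMSO against control.

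Because neither effect alone shows that the knockout and the inhibitor differ, the difference of the log2 changes (knockout effect minus WM-3835 effect) was tested in the same fit. It passed for 4 members, 11.8% of the list against 10.1% of all genes tested (5.69% lower and 4.41% higher). Espn had the smallest adjusted p of these, at -1.55 (SE 0.16, adjusted p = 9.93e-06), with the fall in the knockout and the rise with the inhibitor given above. Inpp5d differed by -0.92 (SE 0.22, adjusted p = 0.0118): it fell in the knockout, and had 8.19, 8.35 and 8.88 CPM with WM-3835 against 7.19, 5.61 and 6.53 CPM with DMSO. Itpr3 differed by 0.47 (SE 0.14, adjusted p = 0.0427), with a change of -0.04 in the knockout and the fall with WM-3835. Gfi1b, a transcriptional repressor of blood and tuft cells, had 4.24, 1.77 and 4.52 CPM in knockout and 6.77, 5.83 and 5.20 CPM in control libraries, and 4.01, 2.92 and 2.88 CPM in WM-3835 and 1.62, 1.65 and 2.11 CPM in DMSO libraries. Its libraries did not overlap in either comparison and lay on opposite sides, and the effects differed by -1.62 (SE 0.50, adjusted p = 0.0464). Gng13 had a difference of 1.03 (SE 0.33) that missed the threshold (adjusted p = 0.0507).

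The differences for Espn and Inpp5d were called with each of the 12 libraries left out. That of Gfi1b was lost without each library other than control 3 and knockout 3 (adjusted p = 0.0527 to 0.129), and that of Itpr3 without any 1 of the knockout, WM-3835 or DMSO libraries other than DMSO 1 (adjusted p = 0.0574 to 0.107). Both Hpgds and Espn, 2 members in all, were called in each of the main comparisons: Hpgds rose in both, and Espn fell in the knockout and rose with WM-3835. Another 22 members were called in neither. The difference for Hpgds was 0.05 (95% interval -0.49 to 0.59), and for Pou2f3 -0.22 (95% interval -0.85 to 0.42).

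Tuft gene levels also differed between the cultures that the knockout and the inhibitor were set against. DMSO cultures had 31 of 34 members lower than control cultures and 3 that did not pass, by up to 36.1 times in mean CPM. The share called was 91.2%, against 24.6% of all genes tested (13.3% lower and 11.4% higher), and the log2 difference was negative for all 34, with a median of -3.25 over the members and 0.0017 over all genes tested. All 3 DMSO libraries lay below all 3 control libraries for 31 members (19.4% of all genes) and above them for 0 (19.6% of all genes). By edgeR, DESeq2 and limma-voom 0 members were called higher, also at an unadjusted p under 0.05. These groups differ in treatment (DMSO or tamoxifen), in genotype label (wild type or control) and in Xist, and these cannot be told apart.

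Il25 averaged 0.508 ± 0.369 CPM in DMSO and 18.3 ± 4.29 CPM in control cultures, the largest log2 difference of the list (-5.08, SE 0.37, adjusted p = 1.52e-08). Chat averaged 1.22 ± 0.449 CPM in DMSO and 17.9 ± 5.63 CPM in control cultures (-3.86, SE 0.36, adjusted p = 2.62e-07). For both, every DMSO library lay below every control library. Trpm5 averaged 15.1 ± 4.01 CPM in DMSO and 189 ± 36.2 CPM in control cultures (-3.62, SE 0.17, adjusted p = 9.98e-11). Pou2f3 averaged 6.43 ± 0.863 CPM in DMSO and 45.3 ± 12.2 CPM in control cultures (-2.81, SE 0.22, adjusted p = 3.69e-08). The log2 differences of Avil (-3.45), Gnat3 (-3.36) and Plcb2 (-3.16) had the same direction and passed.

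The effector genes followed the same direction. Log2 differences were -2.62 for Il17rb, -3.49 for Alox5, -4.37 for Alox5ap, -2.71 for Ltc4s, -3.39 for Ptgs1 and -2.87 for Dclk1, all called. Rgs13 (-4.60), Sh2d7 (-4.40), Bmx (-4.25), Vav1 (-3.99), Cd300lf (-3.85), Hmx3 (-3.59), Hmx2 (-3.57), Matk (-3.33), Nrgn (-2.96), Inpp5d (-2.83), Gng13 (-2.14), Sh2d6 (-1.93), Tas1r3 (-1.79), Gfi1b (-1.73), Plcg2 (-1.39), Espn (-1.28), Strip2 (-0.94) and Itpr2 (-0.82) were called as well. Itpr2, Itpr3, Espn, Nrgn and Strip2 are the 5 members on neither the defining list nor the list that blood cells also make. They summed to 324.5 ± 16.5 CPM in DMSO and 531.8 ± 79.3 CPM in control cultures. Among these 5, Nrgn was 7.92 times lower in mean CPM, and the others were 1.14 to 2.43 times lower. The summed level of the 13 defining genes was 9.07 times lower in DMSO cultures.

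The 3 members that did not pass were Hpgds, Itpr3 and Sucnr1. Hpgds averaged 20.1 ± 4.32 CPM in DMSO and 21.8 ± 5.14 CPM in control cultures (-0.12, 95% interval -0.50 to 0.27, adjusted p = 0.712). Itpr3 averaged 152 ± 10.4 CPM in DMSO and 173 ± 31.9 CPM in control cultures (-0.18, 95% interval -0.40 to 0.03, adjusted p = 0.208). Sucnr1 had 4, 0 and 2 counts in DMSO libraries and 1, 57 and 27 counts in control libraries (adjusted p = 0.0532), and control 1 lay within the DMSO values. Its mean CPM was 17.7 times lower in DMSO cultures (log2 difference -3.93, 95% interval -6.95 to -0.92), and it was called lower with DESeq2 and without control 1. The promoter windows of Hpgds, Itpr3 and Sucnr1 hold the octamer printed above, which is a description noticed after the values were seen.

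**Figure D4:**
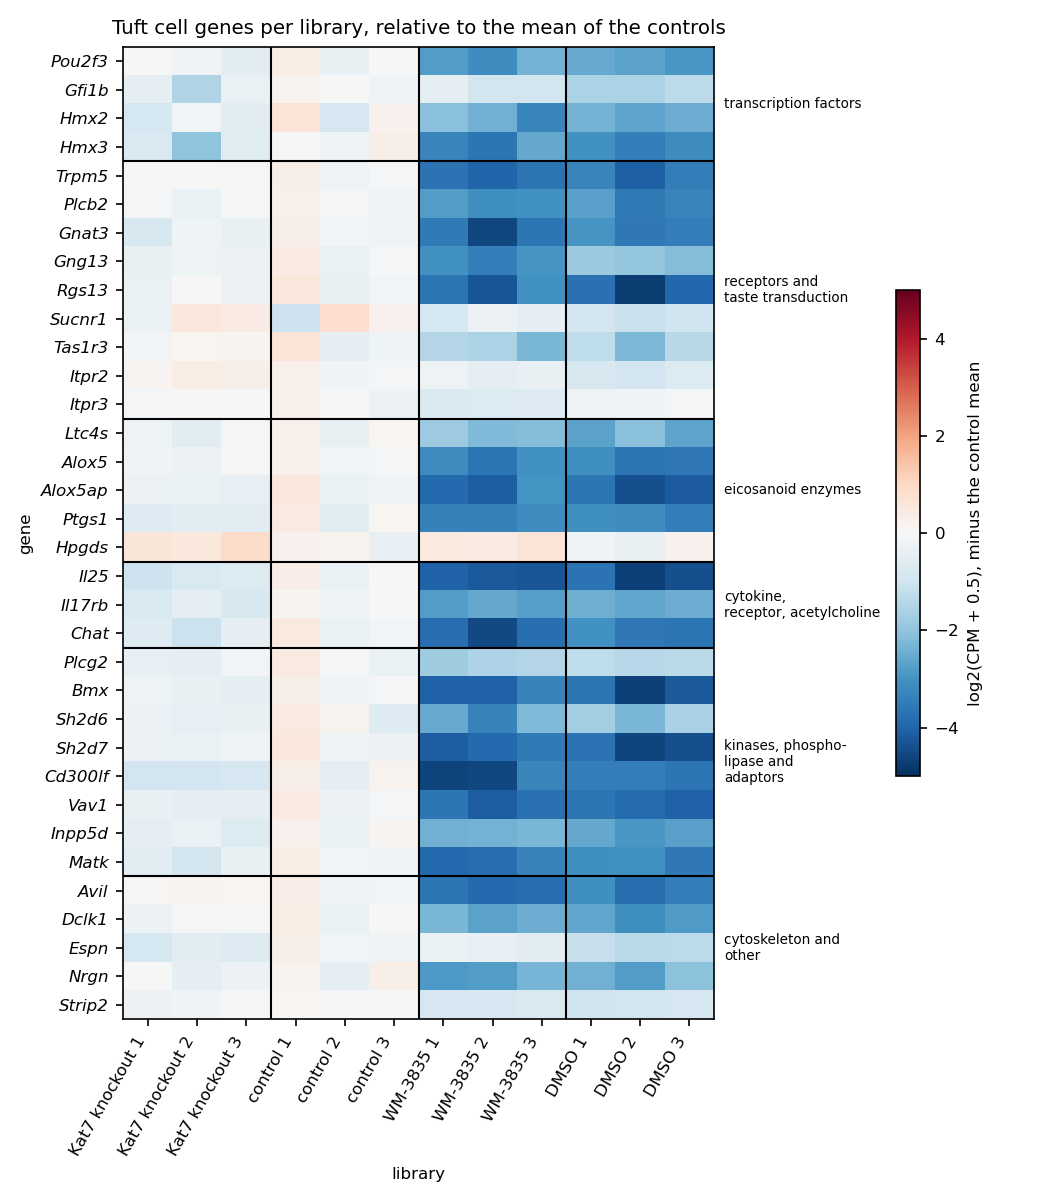
Heat map of log2(CPM + 0.5) minus the mean of the control libraries for 34 members (rows, by role) in 12 libraries (columns, in the order Kat7 knockout, control, WM-3835, DMSO); blue is below and red above the control mean. The WM-3835 and DMSO columns are blue for nearly all rows, with Hpgds, Itpr2, Itpr3, Espn and Strip2 among those closest to the control mean and Hpgds above it in WM-3835; Sucnr1 is pale because the added 0.5 exceeds its DMSO level of 0.0413 CPM, while most knockout cells lie near it.

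Blood cell and mast cell markers were lower in the DMSO cultures as well. The 10 blood cell markers summed to 170.7 to 194.4 CPM in DMSO and 264.6 to 279.3 CPM in control libraries, with Cd52, Itgb2, Laptm5 and Ptprc lower of 9 tested, and Ptprc had 1.27 ± 0.764 CPM in DMSO and 8.67 ± 4.33 CPM in control cultures. Mast cell markers summed to 67.21 to 69.09 CPM in DMSO and 116.0 to 172.7 CPM in control libraries, with 7 of 10 tested lower. Of all genes tested, 13.3% were lower. Of the members, 13 of the 13 defining genes and 14 of the 16 that blood cells also make were called lower. The sums of these lists were 9.07 and 6.86 times lower in DMSO cultures. The part of blood and mast cells in the difference of the members was not tested. In the fit with Xist as a covariate, 26 members were called lower instead of 31, while 4.31% of all genes were called instead of 24.6%.

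Other genes of tuft and taste cells were followed from lists that do not contain the members. Their counts stand beside 8.06% of all genes lower and 6.12% higher in the knockout, and 9.35% lower and 9.34% higher with WM-3835. In DMSO against control, 13.3% of all genes were lower and 11.4% higher. Of 26 tested genes on a list of 30 other tuft genes, 5 fell in the knockout (a median log2 difference of -0.305 over the list), and 4 fell and 7 rose with WM-3835 (median -0.0484). Pygl, glycogen phosphorylase, averaged 41.7 ± 1.85 CPM in Kat7 knockout and 64.9 ± 11 CPM in control cultures (-0.64, adjusted p = 0.0012), and 27.1 ± 1.44 CPM in WM-3835 and 53.5 ± 3.81 CPM in DMSO cultures (-0.98, adjusted p = 8.68e-06). Irag2, an endoplasmic reticulum protein that binds inositol trisphosphate receptors, averaged 103 ± 4.70 CPM in knockout and 192 ± 32.1 CPM in control (-0.89, adjusted p = 0.00186), and 8.73 ± 1.30 CPM in WM-3835 and 16.4 ± 5.92 CPM in DMSO cultures (-0.93, adjusted p = 0.00178). Pygl and Irag2 fell in both comparisons. Bcl2l14 fell in the knockout (-0.54, adjusted p = 0.0315) and rose with WM-3835 (1.12, adjusted p = 9.24e-05), and the effects differed by -1.66 (adjusted p = 0.000118). In DMSO against control, 22 of the 26 were lower (median -1.94).

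Of 35 tested genes on a list of 41 bitter receptor and taste cell genes, Gnb3 and Tas2r102 fell in the knockout and 9 fell with WM-3835: Gnb3 and the bitter receptors Tas2r102, Tas2r103, Tas2r105, Tas2r109, Tas2r117, Tas2r123, Tas2r129 and Tas2r136. Gnb3, the beta subunit of gustducin, averaged 72.8 ± 7.01 CPM in Kat7 knockout and 98.0 ± 20.1 CPM in control (-0.43, adjusted p = 0.0462), and 6.41 ± 0.705 CPM in WM-3835 and 12.2 ± 1.83 CPM in DMSO cultures (-0.94, adjusted p = 0.000276). Tas2r105 averaged 8.92 ± 0.568 CPM in knockout and 8.97 ± 1.55 CPM in control cultures, and 0.221 ± 0.121 CPM in WM-3835 and 0.929 ± 0.31 CPM in DMSO cultures, and its effects differed by 2.01 (SE 0.49, adjusted p = 0.0123). The effects also differed for Tas2r117 (2.64, adjusted p = 0.0281) and for Tas2r109, which was listed at 0 in all WM-3835 libraries. The list summed to 197.0 to 233.6 CPM in knockout and 245.4 to 330.0 CPM in control libraries, and to 29.6 to 34.94 CPM in WM-3835 and 40.55 to 55.11 CPM in DMSO libraries. Of the 40 in the table, 16 had no count in any WM-3835 library and 7 in any DMSO library. In DMSO against control, 26 of 35 were lower. Reads shared between related bitter receptor genes were not measured and could make their counts uncertain.

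Of 28 tested eicosanoid genes on a list of 31 outside the members, 10 fell in the knockout, and 7 fell and Aloxe3 rose with WM-3835. Ptgs2, the inducible cyclooxygenase, averaged 55.9 ± 16.6 CPM in Kat7 knockout and 120 ± 7.53 CPM in control (-1.10, adjusted p = 0.000109), and 25.2 ± 2.30 CPM in WM-3835 and 90.8 ± 8.86 CPM in DMSO cultures (-1.84, adjusted p = 2.08e-07). Ltb4r2, a leukotriene B4 receptor, fell by 2.01 in the knockout (adjusted p = 0.00532) and by 1.64 with the inhibitor (adjusted p = 0.0138). Ptgds, the prostaglandin D synthase related to lipocalins, averaged 12.5 ± 1.23 CPM in knockout and 18.5 ± 1.49 CPM in control (-0.57, adjusted p = 0.0336), and 10.8 ± 2.67 CPM in WM-3835 and 17.1 ± 0.754 CPM in DMSO cultures (-0.66, adjusted p = 0.00996). Ptgds thus fell where Hpgds, the other prostaglandin D synthase, rose. In DMSO against control 3 of the 28 were lower (median -0.169), and of the 5 eicosanoid members 4 were lower.

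Of 14 tested genes on a list of 15 regulators of tuft and related cells, 3 fell in the knockout, and 3 fell and 3 rose with WM-3835. Runx1, a factor of blood and epithelia, averaged 98.2 ± 7.04 CPM in knockout and 144 ± 31.1 CPM in control (-0.55, adjusted p = 0.00907), and 78.5 ± 10.4 CPM in WM-3835 and 48.6 ± 5.44 CPM in DMSO cultures (0.69, adjusted p = 0.00114). The effects on Runx1 differed by -1.24 (adjusted p = 0.000272). Sox4, which acts upstream of tuft cell formation in the mouse gut, rose with WM-3835 (0.79, adjusted p = 8.53e-07), at 351 ± 30.3 CPM in WM-3835 and 203 ± 11.8 CPM in DMSO cultures. Among 13 tested partners of acetylcholine and type 2 signals, Il33 and Bche fell and Il4ra rose in the knockout, and Stat6 rose and Ache fell with WM-3835. Il33, an alarmin upstream of type 2 responses, averaged 3.14 ± 1.17 CPM in knockout and 8.86 ± 3.16 CPM in control cultures.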

How the data were processed

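The deposited table holds whole-number counts per gene. Per the submitters' processing notes, the authors used featureCounts and the mm10 build. No aligner, annotation, strand setting or rule for reads matching several genes is stated in those sources. Overlapping genes and near-identical copies are therefore uncertain. The replicates are labelled biological. Rows with no gene symbol (1312, holding 0.657% to 0.743% of counts) were left out. Counts of all 12 libraries were fitted with 4 group means in edgeR 4.0.16 (R 4.3.3; TMM scaling, filterByExpr, quasi-likelihood test, 2-sided) with Benjamini-Hochberg adjustment over 18670 genes and a threshold of 0.05. All adjusted p-values come from that fit unless another tool is named. CPM are TMM-scaled. Replicate spread was 48.8 to 64.4 times the counting error in control and 18.8 to 26.5 times in Kat7 knockout cultures. It was 13.6 to 24.2 times in WM-3835 and 10.5 to 18 times in DMSO cultures. The main fit used an estimate of spread that the 4 groups share. Alternatives were other scalings, no filter, DESeq2 1.42.0, limma 3.58.1 (voom with quality weights), fits of 2 groups, Xist as a covariate, a replicate block and each library left out. The code was tested on simulated data. The members and lists were chosen with earlier results of these data known. In full, whatever their result, 12 members were described (Pou2f3, Trpm5, Avil, Dclk1, Il25, Il17rb, Gnat3, Alox5, Hpgds, Chat, Ltc4s and Plcb2), with any other member called in a main comparison or in the difference of effects; of the other lists, called genes were named as examples. Promoters are RefSeq windows on GRCm38.p6.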

Additional observations from a re-analysis of the deposited data

Results flagged for a closer look

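For 4 members the effect of the knockout and the effect of WM-3835 differed by the test of the difference itself (knockout effect minus WM-3835 effect, edgeR, log2 scale). Espn differed by -1.55 (adjusted p = 9.93e-06), with all 3 Kat7 knockout libraries below all control libraries and all 3 WM-3835 libraries above all DMSO libraries. Inpp5d differed by -0.921 (adjusted p = 0.0118), with 2 of 3 knockout libraries below all control libraries and all 3 WM-3835 libraries above all DMSO libraries. Gfi1b differed by -1.62 (adjusted p = 0.0464), and neither of its effects passed on its own. Itpr3 differed by 0.469 (adjusted p = 0.0427), with knockout and control libraries overlapping and all 3 WM-3835 libraries below all DMSO libraries.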

How the results depend on the processing

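Member calls in the knockout varied with the libraries and the fit. Against 1 higher and 7 lower (14.2% of all genes called), limma-voom gave 0 higher and 10 lower (7.43%). DESeq2 (18.2%) and the fit without a filter on low counts (12.1%) each gave 1 higher and 9 lower. An edgeR fit of only the knockout and control libraries gave 1 higher and 5 lower (6.53%). There Ptgs1 (adjusted p = 0.0766), Hmx3 (0.0569) and Inpp5d (0.0697) were lost, and Il25 (0.0298) was gained. The fit with Xist as a covariate gave 0 higher and 0 lower (1 and 4 at an unadjusted p under 0.05), with 2.61% of all genes called instead of 14.2% and a median over members of -0.444. A fit with knockout replicate 3 as the only knockout library was an alternative chosen after seeing the data. Its log2 changes were -0.83 for Il17rb, -0.60 for Ptgs1, -0.63 for Hmx3 and -0.87 for Cd300lf. Inpp5d had -0.71 and Matk -0.38 there. With 1 knockout library, only effect sizes are given. Leaving out 1 library gave 0 to 2 higher and 2 to 8 lower (9.2% to 14.6% of all genes called). With WM-3835, 5 instead of 3 members were lower without a filter on low counts (15% of all genes called, against 18.7%). Limma-voom also gave 5 lower, with 4 higher (36.1%). A fit of only the WM-3835 and DMSO libraries gave 4 higher and 4 lower (34.6%). With 1 library left out, 1 to 3 were higher and 2 to 4 lower (12.4% to 13.9%). In the difference of effects, 2 members instead of 1 were higher with RLE scaling, upper quartile scaling, no filter or DESeq2. These settings called 9.21% to 13.4% of all genes, against 10.1%. The Xist covariate gave 0 higher (3.79%). In this contrast, leaving out 1 library gave 0 to 3 higher and 2 to 5 lower (6.99% to 11.7%). In DMSO against control, every setting gave 26 to 32 lower.

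Same-numbered knockout and control libraries did not deviate together (correlations of -0.00536 to 0.0201). Between WM-3835 and DMSO, same-numbered libraries had weak positive correlations of 0.02 to 0.107. Differently numbered ones had -0.0996 to 0.0219 there. Whether the numbers pair the WM-3835 and DMSO libraries was not tested, and the main fit used no pairing. With the replicate block 7 members were lower in the knockout (12.8% of all genes called). There Ptgs1 (adjusted p = 0.0683) and Inpp5d (0.0509) were lost and Il25 (0.0493) and Vav1 gained. With WM-3835 the replicate block gave 5 lower (18% of all genes called), with Avil (0.0438) and Gnat3 (0.0497) gained, and Il25 had a log2 difference of 0.1071.

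Values near 0 changed sign, and the cause was not tested. Trpm5 in the knockout had -0.002256 with upper quartile scaling, -0.00382 with limma-voom, -0.005036 with the Xist covariate, and -0.08811 to 0.1844 with 1 library left out. Dclk1 in the knockout had -0.3241 to 0.03567 with 1 library left out. With WM-3835, Il25 had 0.005511 in a fit of the 2 groups and -0.3144 to 0.765 with 1 library left out, and Pou2f3 had -0.2661 to 0.1358. Hpgds in DMSO against control had 0.2878 with the Xist covariate and -0.2825 to 0.01535 with 1 library left out. Of the gene results over all settings, 643 kept direction and side of the threshold, 75 lost the call, 18 gained it and 16 changed sign. This pool includes members not called in the main fit and the results of DMSO against control. It is therefore not a measure of how stable the calls were. In the difference of effects, the call was lost in 13 of 19 settings for Gfi1b, in 9 for Itpr3 and in 0 for Inpp5d and Espn. Libraries of 26656847 or more counts leave Sucnr1 and Il25 at few counts in the WM-3835 and DMSO cultures, with SEs of 1.39 and 0.39 between them.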

Other observations

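Ionocytes, another rare epithelial cell, were followed with 7 markers. In DMSO against control, Ascl3, Atp6v0d2, Atp6v1b1, Cftr and Foxi1 were lower by edgeR, beside 13.3% of all genes lower. The 7 genes summed to 24.72 to 27.79 CPM in DMSO and 102.0 to 117.6 CPM in control libraries. Of 8 markers of ciliated cells, 7 were lower with WM-3835, beside 9.35% of all genes. The list summed to 23.84 to 26.32 CPM in WM-3835 and 66.13 to 76.42 CPM in DMSO libraries. The same 8 summed to 58.58 to 72.7 CPM in Kat7 knockout and 70.44 to 119.5 CPM in control libraries. Of these 8, 2 were lower in the knockout, beside 8.06% of all genes.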
